A study of Mus musculus with 24 samples.

Results

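PLZF- γδ T cells of the lung were compared with PLZF- γδ T cells of lymphoid tissue, taken as the mean of spleen and inguinal lymph node. The comparison uses 9 of the 24 libraries of the series, 3 from PLZF- lung, 3 from PLZF- spleen and 3 from PLZF- inguinal lymph node, all chosen by their labels. The animals were C57Bl/6 males of 16 to 22 weeks that carry the PLZF-GFP reporter in every group, fed freely and not treated. γδ T cells with no GFP signal were sorted from each tissue, and PLZF- therefore means the absence of reporter fluorescence in the sort. Libraries were made with Smart-seq2, a full-length cDNA method for small cell numbers. The series text speaks of 2 replicates per subset, each a pool of 10 mice, while 3 libraries are labelled for each group. Nothing states that the 3 hold separate pools, so p-values measure the spread between these libraries. The deposited table has 7926 genes, and 7915 were used, after 11 merged entries were left out, and 2131 had enough reads to test. The authors had kept only genes that passed their own tissue test at q under 0.05, so every gene described here was picked in part for a difference between tissues.

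γδ T cells carry a T cell receptor of a γ and a δ chain with the CD3 signalling complex, and many of them reside in barrier organs such as the lung. PLZF is a transcription factor of innate-like lymphocytes, and PLZF- γδ cells include naive-like cells that recirculate through lymphoid organs. Immediate early genes are transcribed within minutes of receptor, stress or tissue-handling signals. Their products, such as the AP-1 and NR4A factors, are followed by brakes such as dual-specificity phosphatases and A20 that end the signal. Cyclic AMP signals act through CREB, which binds the cAMP response element, and through targets such as CREM.

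Lung libraries 2 and 3 were shallow. Over the genes of the table the PLZF- lung libraries 1 to 3 held 536193, 63710 and 57107 recovered reads, against 286972 to 789473 in the 6 lymphoid libraries. Normalized reads below are recovered reads divided by a library's relative depth, and 3 reads equal 17.7 and 17.0 normalized reads in lung libraries 2 and 3 but 1.86 in lung library 1. They are not divided by transcript length, so levels are compared between libraries and not between genes. The share of genes without a read was 25.4% in lung library 1, which stands apart in this, 60.5% and 60.3% in lung libraries 2 and 3, and 51.3% to 61.9% in the lymphoid libraries.

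Transcripts that mark other cells were more abundant in the lung libraries, and T cell transcripts less abundant. Markers of T cells (Cd3e, Cd3d, Cd3g, Cd247, Thy1) took 0.379%, 0.170% and 0.201% of reads in lung libraries 1 to 3, against 0.846% to 1.52% in the lymphoid libraries. The 19 general myeloid markers took 4.58%, 9.87% and 4.40% in lung, against 0.0772% to 3.32% in lymphoid libraries, where spleen library 2 (2.02%) and lymph node library 1 (3.32%) were highest. Alveolar macrophage markers, 14 genes led by Chil3, took 0.0940%, 1.74% and 1.03% in lung, against 0.00422% to 0.0428%. In each of these 3 lists the lung and lymphoid libraries did not overlap (exact permutation test, two-sided, p = 0.0238, the smallest that 3 against 6 libraries allow; adjusted p = 0.0476 over 8 lists of other cells for the last 2). Endothelial markers reached 1.23% and 0.266% in lung libraries 2 and 3 but 0.0354% in lung library 1, inside the lymphoid range of 0.0167% to 0.0498% (exact permutation p = 0.0714). Fibroblast markers had the same shape (0.0338%, 0.554% and 0.270%, against 0.0239% to 0.0513%; exact permutation p = 0.0952). Markers of B cells took 0.777%, 0.769% and 1.22% in lung, against 0.318% to 3.86% in lymphoid libraries (exact permutation p = 0.857). Lung epithelial markers were at 0.00410%, 0.221% and 0.0578% in lung, against 0% to 0.00209%, with no overlap (exact permutation p = 0.0238, adjusted p = 0.0476), and in lung library 1 Sftpc, the surfactant protein C gene, had 2 reads. Of the list of NK cells and innate lymphoid cells only Il1rl1 and Il5 were in the table. They took 0.0101%, 0.00314% and 0.00701% in lung, against 0% to 0.00291%, also without overlap (exact permutation p = 0.0238, adjusted p = 0.0476). That separation rests on very few reads, 2 of Il5 in lung library 2 and 4 of Il1rl1 in lung library 3. Myeloid transcripts were thus common to all lung libraries. Endothelial and fibroblast transcripts were high in lung libraries 2 and 3 and not in library 1. Lung epithelial markers were also highest in lung libraries 2 and 3, but library 1 too lay above the lymphoid libraries. In bulk libraries fewer cells of a type and less RNA per cell cannot be told apart.

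**Figure D1:**
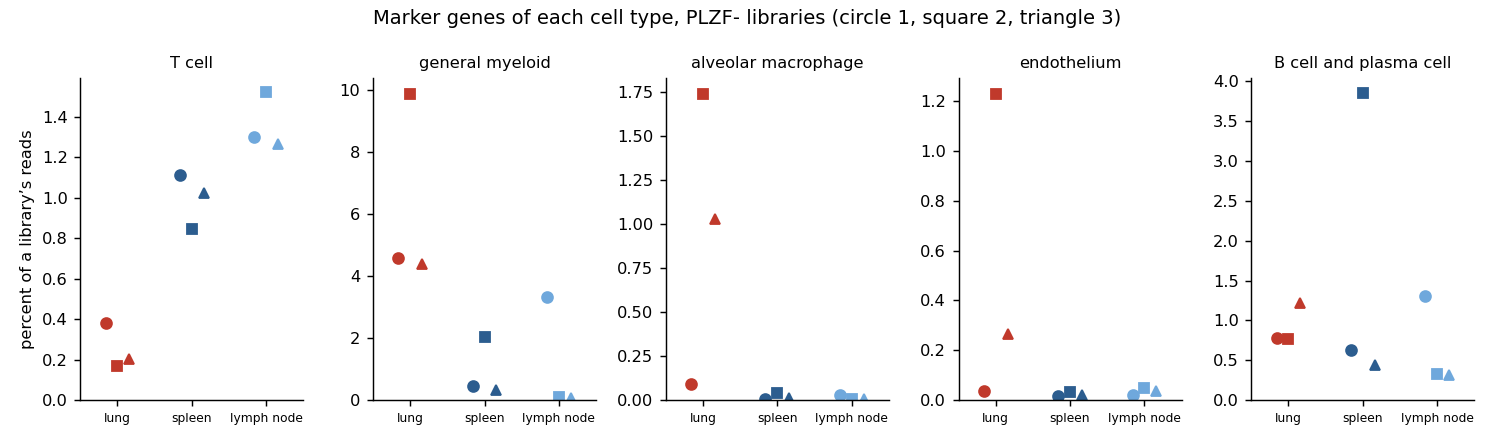
Share of each PLZF- library's reads (percent, vertical axis, a scale of its own in each panel) that fell on the marker genes of T cells, myeloid cells, alveolar macrophages, endothelium and B cells, with 3 libraries per tissue. T cell markers lie lower and myeloid markers higher in every lung library than in every lymphoid library, and endothelial markers are high in lung libraries 2 and 3 but not in library 1.

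In PLZF- lung cells 1355 of 2131 genes (63.6%) differed from the lymphoid mean at adjusted p under 0.05, 548 higher (25.7%) and 807 lower (37.9%). Values are log2 of normalized reads plus 5, and differences (lung minus lymphoid mean) carry the standard error of the fit over 3 lung and 6 lymphoid libraries. The median over all tested genes was -0.40. Testing asked for a mean of at least 20 normalized reads over the libraries compared. A gene with a lymphoid mean below that entered only through lung and could hardly be called lower. Every lung library lay above every lymphoid library in 374 genes (17.6%) and below in 523 (24.5%). Spleen and lymph node means lay on the same side of lung in 548 of the 548 higher genes and 806 of the 807 lower ones. For the higher genes lung library 1 alone had a median difference of 1.61, against 2.14 with all 3. For the lower genes it had -0.66, against -1.43 with all 3, and 192 of the 807 had 0 reads in lung library 2 or 3.

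Fewer lower than higher calls were kept with other weights or on another scale. With voom, which weights low counts less, 453 genes were higher (21.3%) and 163 lower (7.65%), of which 412 and 159 were among the main calls. When each library was scaled so that the summed reads of the 5 T cell markers were equal, the median over all genes was 1.47, 1422 genes were higher (66.7%) and 29 lower (1.36%). All 548 higher genes were higher there too, 29 of the 807 lower ones remained lower and 195 turned higher. This scaling raised lung against lymphoid values as a whole, so a higher call could hardly be lost by it. On the standard scale of the table, then, "lower" compares a gene with the whole RNA of a library, and on the T cell scale with its CD3 and Thy1 transcripts. Calls fell to 879 without lung library 2, and lower calls to 504 and 485 without lung library 2 and without lung library 3. With lung library 1 as the only lung library 59 genes were higher and 16 lower, under the assumption that it varies as the lymphoid libraries do.

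**Figure D2:**
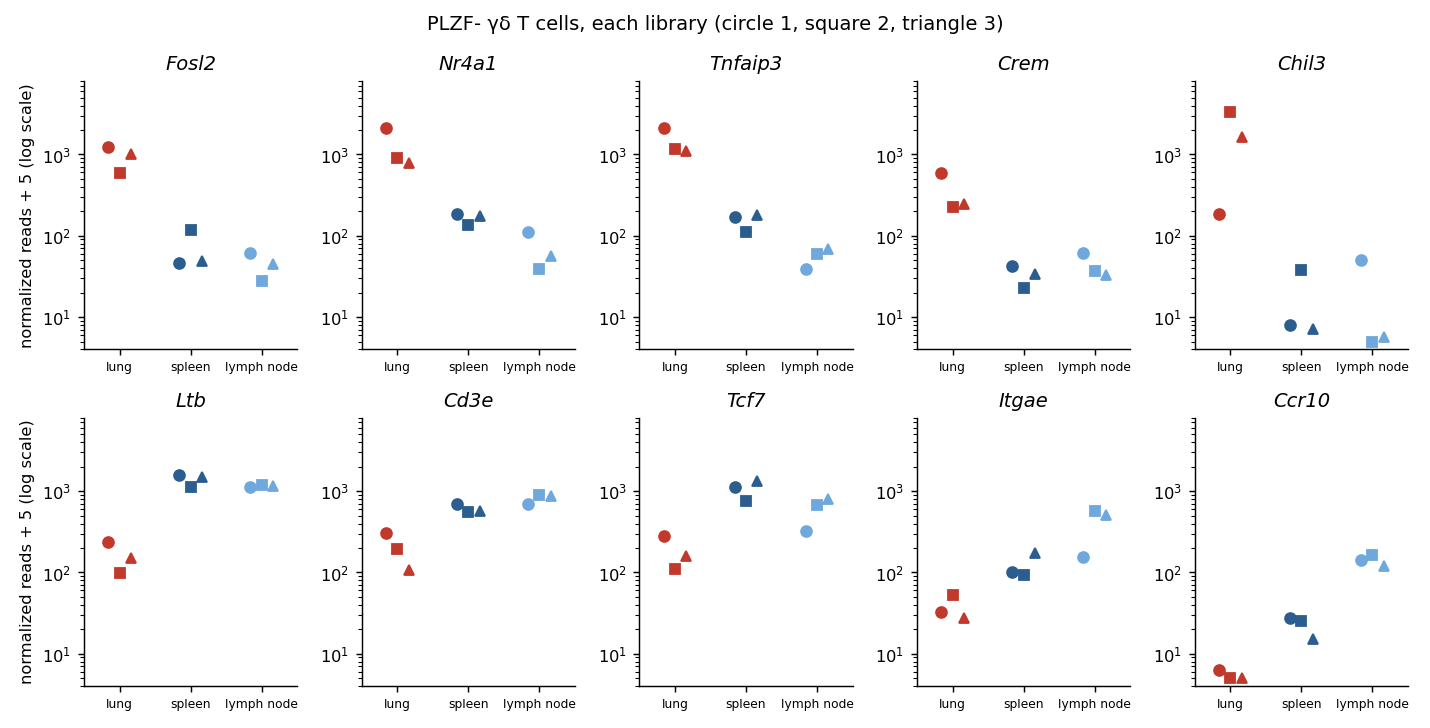
Normalized reads plus 5 (log axis) of 10 genes in each PLZF- library of lung, spleen and lymph node, where circles, squares and triangles are libraries 1, 2 and 3. Fosl2, Nr4a1, Tnfaip3, Crem and Chil3 are higher, and Ltb, Cd3e, Tcf7, Itgae and Ccr10 lower, in each lung library than in each lymphoid library.

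Immediate early genes were higher in PLZF- lung cells. The table holds 24 of them and 19 had enough reads to test, of which 17 were higher (25.7% of all tested genes were) and 0 lower, with a median difference of 1.95, against -0.40 over all genes. In 13 every lung library lay above every lymphoid library, as in 17.6% of all tested genes. Fosl2, an AP-1 subunit of the FOS family, had 1235, 594 and 1012 normalized reads in lung libraries 1 to 3, against 41.2, 111 and 44.6 in spleen and 56.7, 22.99 and 39.5 in lymph node. Its lowest lung library stood well above its highest lymphoid one, and lung library 1 held the most (log2 difference 4.12 ± 0.39 SE, adjusted p = 7.27e-05). Nr4a1, an orphan nuclear receptor induced by antigen receptor signals, had 2105, 906 and 780.0 normalized reads in lung libraries 1 to 3, against 182, 130.3 and 172 in spleen and 105, 33.7 and 51.5 in lymph node, again with no overlap (3.50 ± 0.40 SE, adjusted p = 0.000252). Its relative Nr4a3 had 264, 182 and 124 normalized reads in lung libraries 1 to 3, against 23.1, 40.6 and 17.3 in spleen and 29.3, 10.7 and 11.99 in lymph node, and lung was higher than both lymphoid tissues (2.89 ± 0.40 SE, adjusted p = 0.000708). Atf3, a stress-induced factor that pairs with AP-1 subunits, had 387, 706 and 181 normalized reads in lung libraries 1 to 3, against 5.77, 20.3 and 0.737 in spleen and 8.500, 1.64 and 0 in lymph node. Among lymphoid libraries only spleen library 2 exceeded 10 normalized reads of Atf3, and the difference was 5.31 ± 0.58 SE, adjusted p = 0.000188. Fos itself had 998, 1748 and 893 normalized reads in lung libraries 1 to 3, against 56.5, 316 and 19.2 in spleen and 28.3, 0 and 16.9 in lymph node. Spleen library 2, the lymphoid library with the highest summed share of other cells' markers (6.53%), held most of the lymphoid Fos, and the difference was 5.07 ± 0.73 SE, adjusted p = 0.000782. Lymph node library 1, the highest lymphoid library in myeloid markers (3.32%, against 2.02% in spleen library 2), had 28.3. A link between Fos and other cells was not tested.

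The other members ranged from 0.83 for Btg1 and Zfp36 to 4.09 for Fosb in log2 difference among those past the test. Btg2, an antiproliferative gene, had 1903, 1601 and 842 normalized reads in lung libraries 1 to 3, against 246 to 452 in lymphoid libraries (1.95 ± 0.32 SE, adjusted p = 0.00152). Klf6, a zinc finger factor, had 941, 883 and 735 in lung, against 266 to 377 (1.42 ± 0.26 SE, adjusted p = 0.00279). Egr1 and Egr2, zinc finger factors downstream of MAP kinases, were highest in the shallow libraries: Egr1 had 154, 712 and 418 in lung, against 56.7 to 124 (1.75 ± 0.42 SE, adjusted p = 0.00735), and Egr2 (1.37 ± 0.44 SE, adjusted p = 0.0197) was 0.49 in lung library 1 alone and 0.90, short of the test, without lung library 2. Klf10 (0.19 ± 0.37 SE, adjusted p = 0.66) and Batf (-0.90 ± 0.40 SE, adjusted p = 0.0605), an AP-1 partner of effector T cells, did not pass. On the T cell scale 19 of 19 were higher, as were 66.7% of all genes, and with voom 15 of the 17 passed. In lung library 1 alone the list had a median of 2.43, against 2.08 in lung libraries 2 and 3. Myeloid cells use these genes as well. Lung library 3 held 4.40% of myeloid marker reads and lymph node library 1 held 3.32%, and Lyz2, the lysozyme of myeloid cells, stood at 7648 normalized reads in lung library 3 and 5049 in lymph node library 1. Fosl2 stood at 1012 in the same lung library and 56.7 in the same lymph node library, and Nr4a1 at 780.0 and 105. Alveolar macrophage markers took 1.03% of reads in that lung library and 0.0296% in that lymph node library. Their myeloid transcripts thus differed in kind, and the pair is not matched. Other genes were high in that lymph node library, where Ccl4 (195) and Cdkn1a (77.4) stood highest of the 6 lymphoid ones. The part of myeloid cells in these differences was not tested.

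Genes of the cAMP response and the clock formed a second group, with 8 of 8 tested members higher, 0 lower and no overlap in any of them (median 2.53). Of all tested genes 25.7% were higher and 17.6% had every lung library above every lymphoid one. Crem, a cAMP-responsive modulator, had 589.9, 224 and 243 normalized reads in lung libraries 1 to 3, against 37.1, 17.9 and 29.1 in spleen and 56.7, 32.02 and 27.5 in lymph node (3.14 ± 0.39 SE, adjusted p = 0.000388). Per1, a clock gene that CREB induces, had 455, 253 and 260.0 normalized reads in lung libraries 1 to 3, against 81.7, 70.5 and 73.3 in spleen and 50.1, 51.7 and 45.1 in lymph node (2.27 ± 0.29 SE, adjusted p = 0.000397). Both were highest in lung library 1, and their lymphoid libraries lay close together. Sik1, a kinase that feeds back on CREB coactivators, had 262, 147 and 254 in lung, against 6.35 to 43.03 in lymphoid libraries (3.27 ± 0.42 SE, adjusted p = 0.000401). Csrnp1, a nuclear factor induced by AXIN1 in human cells, had 209.7, 135 and 96.1 in lung, against 25.4 to 53.4 (1.69 ± 0.32 SE, adjusted p = 0.00296). Pde4b and Pde4d, phosphodiesterases that break down cAMP, were higher by 1.29 and 1.70 on the log2 scale, and Nfil3, a clock-linked bZIP factor, by 2.80. All 8 were also higher with voom (21.3% of all genes) and on the T cell scale (66.7%), and in lung library 1 alone the median was 3.18.

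Negative regulators of signalling were mostly higher, with 9 of 13 tested members up, 2 down and 2 not past the test (median 1.42; 25.7% and 37.9% of all tested genes). Tnfaip3, which encodes A20, a brake on NF-κB, had 2119, 1154 and 1097 normalized reads in lung libraries 1 to 3, against 165, 107 and 173 in spleen and 34, 54.2 and 64.2 in lymph node. Its lung libraries lay far above all lymphoid ones (3.95 ± 0.33 SE, adjusted p = 2.94e-05). Dusp1, a phosphatase of p38 and JNK, had 1721, 2066 and 876 normalized reads in lung libraries 1 to 3, against 152, 542 and 90.7 in spleen and 51.9, 44.3 and 35.3 in lymph node (3.89 ± 0.48 SE, adjusted p = 0.000388). Dusp5, a nuclear phosphatase of ERK, had 414, 124 and 464 normalized reads in lung libraries 1 to 3, against 36.3, 22.7 and 35.7 in spleen and 44.4, 20.5 and 14.8 in lymph node (3.18 ± 0.45 SE, adjusted p = 0.000745). Rgs1, a G protein regulator of tissue-resident T cells that dampens chemokine signals, had 785, 459 and 249 normalized reads in lung libraries 1 to 3, against 37.1, 60.96 and 36.1 in spleen and 144, 96.9 and 117 in lymph node (2.55 ± 0.36 SE, adjusted p = 0.000745). Socs3 and Spry2, inhibitors of cytokine and growth factor receptors, overlapped with lymphoid libraries (1.18 ± 0.43 SE, adjusted p = 0.0317, and 1.42 ± 0.58 SE, adjusted p = 0.0479). Nfkbia, the IκBα gene, did not pass (0.36 ± 0.33 SE, adjusted p = 0.331), nor did Dusp6 (0.27 ± 0.35 SE, adjusted p = 0.506). The 2 lower members were Cd5 and Cd6, surface receptors that restrain T cell receptor signals. Cd5 had 63.9, 11.8 and 11.3 normalized reads in lung libraries 1 to 3, against 211, 166 and 219 in spleen and 100.1, 142 and 159 in lymph node (-2.64 ± 0.44 SE, adjusted p = 0.00162), and it stayed lower on the T cell scale (-0.90, adjusted p = 0.0385), whereas Cd6 did not (-0.14, adjusted p = 0.748).

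Upstream sequence of 5 of these higher genes is shown because CREB binds the motif marked in them. Each stretch was picked for its motifs, as the one with the most of them in the gene's first listed promoter that holds any. Each stretch has 100 bases that end before the gene's annotated start, read 5′ to 3′ on the gene's strand from RefSeq promoters (build GRCm38.p6), and capitals mark TGACG, the core of the cAMP response element, or its reverse complement CGTCA.
Nr4a1 (chr15:101266613-101266712, plus strand): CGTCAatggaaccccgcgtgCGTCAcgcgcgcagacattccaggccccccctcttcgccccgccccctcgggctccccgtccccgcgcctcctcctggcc
Fosb (chr7:19310054-19310153, minus strand): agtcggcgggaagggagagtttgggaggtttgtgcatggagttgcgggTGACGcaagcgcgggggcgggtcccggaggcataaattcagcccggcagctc
Per1 (chr11:69098699-69098798, plus strand): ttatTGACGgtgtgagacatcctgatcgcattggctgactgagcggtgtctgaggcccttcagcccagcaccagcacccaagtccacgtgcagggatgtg
Dusp1 (chr17:26508579-26508678, minus strand): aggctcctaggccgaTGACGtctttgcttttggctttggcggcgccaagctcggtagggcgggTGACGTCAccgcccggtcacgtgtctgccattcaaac
Btg2 (chr1:134079269-134079368, minus strand): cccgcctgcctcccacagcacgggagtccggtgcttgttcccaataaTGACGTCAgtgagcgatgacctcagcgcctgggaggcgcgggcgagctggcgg
The stretches of Dusp1 and Btg2 hold the whole element TGACGTCA, in which the core reads on both strands, and that of Nr4a1 holds 2 separate cores. Over 300 bases around a start (250 before it, 50 after), on either strand and in any listed promoter of a gene, TGACG was found in 10 of 15 higher immediate early genes with a promoter in the table, 4 of 5 higher cAMP and clock genes and 5 of 7 higher brakes. It was found in 545 of 1592 tested genes (34.2%) and in 23.0% of the 27025 genes of the promoter table, from which 1 chromosome was left out. Among all 414 higher genes with a promoter the share was 35.3%, and among 592 lower ones 31.6%. The whole element was in 1 of 15 immediate early genes, 0 of 5 cAMP and clock genes and 2 of 7 brakes, against 3.52% of tested genes. The AP-1 motif TGANTCA was in 0 of 15, 1 of 5 and 1 of 7 of these genes, against 7.35% of tested genes. These counts describe letters in fixed windows of genes chosen with their values known, and binding was not measured.

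**Figure D3:**
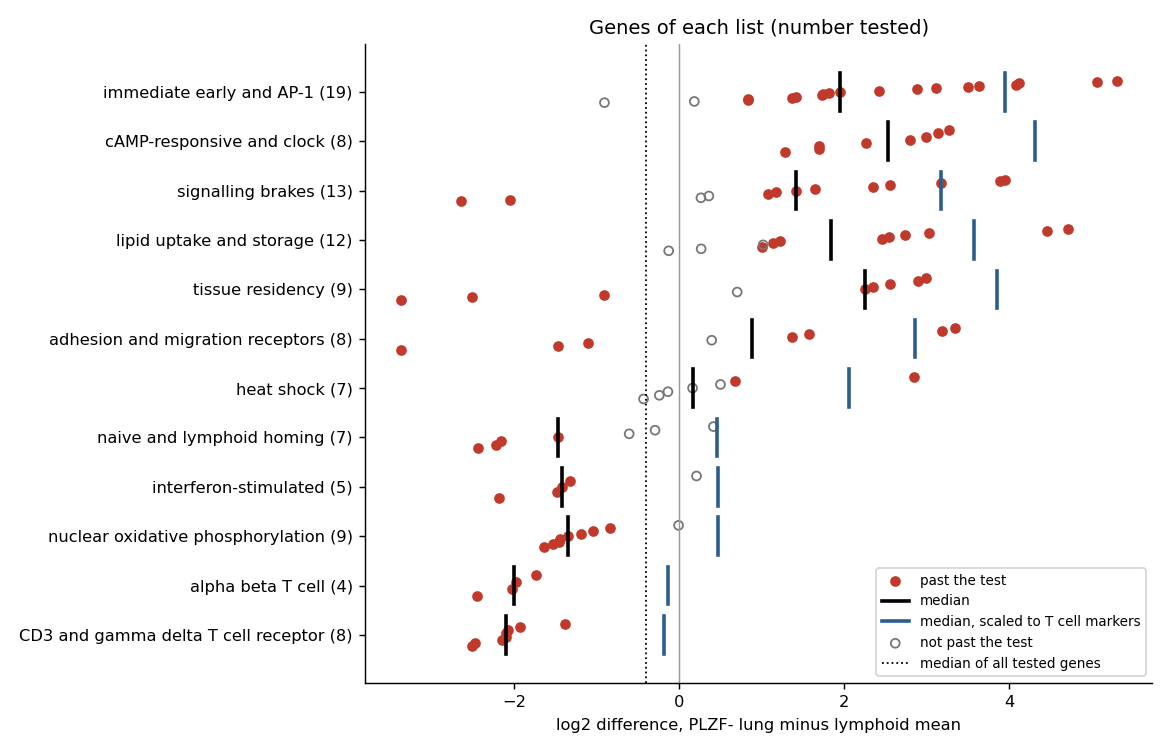
Log2 difference (PLZF- lung minus the lymphoid mean, horizontal axis) of each tested gene in 12 lists, filled where adjusted p was under 0.05 and open otherwise, with the list median in black, the median after scaling to T cell markers in blue and the median of all tested genes dotted. The 3 upper lists lie mostly right of 0 on both scales, while the medians of the naive, interferon and oxidative phosphorylation lists change sign between the scales.

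CD3 and γδ T cell receptor genes were lower in PLZF- lung, 8 of 8 tested (37.9% of all tested genes were; median -2.10). Cd3e, a CD3 chain, had 302, 188 and 102 normalized reads in lung libraries 1 to 3, against 695, 545 and 565 in spleen and 690.4, 902 and 863 in lymph node (-1.92 ± 0.34 SE, adjusted p = 0.00219). Cd3g, another, had 251, 106 and 96.1 normalized reads in lung libraries 1 to 3, against 906, 536 and 919 in spleen and 738, 908 and 762 in lymph node (-2.47 ± 0.35 SE, adjusted p = 0.000745). Each lung library was below each lymphoid library for both. Tcrg-C2, which encodes a γ chain constant region, had 98.01, 47.1 and 50.9 in lung, against 173 to 425 (-2.10 ± 0.35 SE, adjusted p = 0.00168). Thy1, a surface glycoprotein of T cells outside this list, had 153, 124 and 147 in lung, against 384 to 929 (-2.05 ± 0.28 SE, adjusted p = 0.000708). CD3 and γ chain transcripts were thus read in all lung libraries, as the label asks, at levels below those of lymphoid tissue. Zbtb16, the PLZF gene, is not among the genes used here, so the reporter label itself was not checked. Constant segments of the T cell receptor β chain, which γδ cells can also transcribe, were lower alike: Trbc2 had 449, 188 and 209 in lung, against 846 to 1219.9 (-1.98 ± 0.33 SE, adjusted p = 0.00168). Trac, the constant segment of the α chain, had 99.3, 11.8 and 11.3 in lung, against 63.2 to 315, and its call ended without lung library 2 (-1.59) or 3 (-1.57). Cd8b1, a CD8 chain of αβ T cells, had 154, 17.7 and 11.3 in lung, against 134 to 384 (-2.45 ± 0.60 SE, adjusted p = 0.00763). For both, lung library 1 lay inside the lymphoid range. Trbc1 and Trbc2 are near-identical and may share reads. On the T cell scale, in which Cd3e, Cd3d, Cd3g, Cd247 and Thy1 set the scale, 0 of the 8 genes were lower, Cd247 was higher by 0.59, and Cd3e (0.05) and Trbc2 (0.01) did not differ past the test. In lung library 1 alone Cd3e was -1.19 (adjusted p = 0.0681). Lung library 1, with 5.54% of reads on markers of other cells, held 1259 normalized reads of the 5 T cell markers, and spleen library 2, with 6.53%, held 2432. These markers differed in kind. Myeloid markers took 4.58% in lung library 1 and 2.02% in spleen library 2, and B cell markers 0.777% and 3.86%. The part of other cells' transcripts in the lower level was not tested.

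Genes of naive cells and lymphoid homing gave a mixed picture, with 4 of 7 down, 0 up and 3 not past the test (37.9% of all tested genes were lower; median -1.46, but 0.47 on the T cell scale). On that scale 0 were lower and 3 higher, against 1.36% and 66.7% of all genes. Tcf7, which encodes TCF-1 of naive and memory-like T cells, had 275, 106 and 153 normalized reads in lung libraries 1 to 3, against 1114, 746 and 1311 in spleen and 320.2, 665 and 786 in lymph node (-2.16 ± 0.39 SE, adjusted p = 0.00241). Dapl1, known from resting lymphocytes, had 11.2, 17.7 and 0 normalized reads in lung libraries 1 to 3, against 84.5, 59.8 and 64.9 in spleen and 52.9, 41.1 and 73.4 in lymph node (-2.44 ± 0.48 SE, adjusted p = 0.00325). Ccr9, the receptor for the gut and thymus chemokine CCL25, had 89.3, 52.97 and 79.1 in lung, against 68.9 to 401 (-1.46 ± 0.46 SE, adjusted p = 0.0177), changed sign on the T cell scale (0.47) and did not pass without lung library 2 (-1.25). Foxp1, a regulator of quiescence, did not pass (-0.60 ± 0.29 SE, adjusted p = 0.0843).

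Residency genes split, with a lower share near that of all tested genes (37.9%) and a higher share above theirs (25.7%). Rgs1, Rgs2, Litaf, Bhlhe40 and Itga1 were higher, Ccr10, Itgae and Runx3 lower, and Ahr did not pass (5 and 3 of 9 tested; median 2.25). Itga1, the collagen-binding integrin chain CD49a, had 24.2, 159 and 39.6 normalized reads in lung libraries 1 to 3, against 15.3, 10.8 and 2.58 in spleen and 7.56, 9.03 and 4.23 in lymph node (2.25 ± 0.62 SE, adjusted p = 0.011), with most of it in lung library 2. Litaf, a lysosomal membrane protein gene, had 408, 418 and 141 in lung, against 16.4 to 77.1 (2.89 ± 0.51 SE, adjusted p = 0.00213). Itgae, the chain CD103 that binds E-cadherin, had 27.3, 47.1 and 22.6 normalized reads in lung libraries 1 to 3, against 96.1, 89.1 and 167 in spleen and 149, 571 and 502 in lymph node (-2.51 ± 0.43 SE, adjusted p = 0.00195). Lung lay below both lymphoid tissues, and the lymph node libraries held more Itgae than 2 of the 3 spleen libraries. On the T cell scale Itgae was at -0.65 and did not pass (adjusted p = 0.231), and Runx3, lower on the standard scale (-0.91), was higher by 1.05.

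Of 8 adhesion and migration receptors tested 4 were higher, 3 lower and Itga4, the integrin α4 chain, did not pass (0.40 ± 0.35 SE, adjusted p = 0.323). The lower share was that of all tested genes (37.9%), and the higher share was above theirs (25.7%). Ccr10, the receptor for the epithelial chemokines CCL27 and CCL28, had 1.24, 0 and 0 normalized reads in lung libraries 1 to 3, against 22.3, 20.3 and 10.3 in spleen and 139, 158 and 114 in lymph node. It was close to absent from lung and most abundant in lymph node. Lung held 2 reads in all, against 618 in the 6 lymphoid libraries, a ratio of 0.0174 after scaling for depth (95% exact interval 0.00210 to 0.0630, counting error only), and the call held on the T cell scale (-2.73, adjusted p = 0.0012), with voom and in lung library 1 alone (-3.16, adjusted p = 0.0144). Ccr6, the receptor for CCL20, was abundant in lymph node and not in spleen: it had 34.1, 58.9 and 67.8 in lung, against 35.9, 61.6 and 15.1 in spleen and 282, 577 and 343 in lymph node (-1.10 ± 0.41 SE, adjusted p = 0.033). Against spleen alone Ccr6 differed by 0.58 (adjusted p = 0.3), and against lymph node alone by -2.77 (adjusted p = 0.00213). That call ended without lung library 1 (-0.83), lung library 2 (-1.18), lymph node library 2 (-0.95) or 3 (-1.14), or spleen library 1 (-1.07) or 2 (-0.90), and on the T cell scale the sign changed (0.78). Cxcr4, the receptor for CXCL12, was higher, with 273, 165 and 153 in lung, against 47.6 to 75.1 (1.57 ± 0.29 SE, adjusted p = 0.00262), and so was Itgb1, the integrin β1 chain (1.37 ± 0.33 SE, adjusted p = 0.00708). Itgax, the integrin CD11c, and Ccr1, the receptor for CCL3, were higher too (3.19 and 3.35), and both are abundant in myeloid cells. Ptgdr2, a prostaglandin D2 receptor, had 2.48, 0 and 0 in lung, against 6.599, 1.195 and 5.53 in spleen and 73.7, 112 and 56.4 in lymph node (-2.26 ± 0.57 SE, adjusted p = 0.00826), a ratio to lymphoid tissue of 0.0654 (0.0177 to 0.169) from 4 lung reads.

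Among cytokine genes Ltb was lower and Ccl3, Ccl4 and Osm higher (5 tested; of all tested genes 37.9% were lower and 25.7% higher). Ltb, lymphotoxin β, which organizes lymphoid tissue, had 233, 94.2 and 147 normalized reads in lung libraries 1 to 3, against 1577, 1131 and 1501 in spleen and 1105, 1196 and 1143 in lymph node. Each of the 3 lung libraries lay far below each lymphoid one (-3.05 ± 0.32 SE, adjusted p = 0.000162), and Ltb was lower beyond the T cell markers (-1.07 on the T cell scale, adjusted p = 0.00102) and in lung library 1 alone (-2.41, adjusted p = 0.0118). Ccl4, a chemokine of activated T and myeloid cells, had 749, 141 and 254 normalized reads in lung libraries 1 to 3, against 19.4, 48.4 and 22.1 in spleen and 195, 4.93 and 2.82 in lymph node (3.42 ± 0.87 SE, adjusted p = 0.00846), and lymph node library 1 lay inside the range of lung. Osm, oncostatin M, had 139, 359 and 79.1 in lung, against 5.67 to 61.04 (2.60 ± 0.62 SE, adjusted p = 0.007). Ccl3 was higher by 2.52, a call that ended without lung library 1 (2.14) or 2 (2.28). Of the IL-17 programme, 5830411N06Rik, the scavenger receptor gene Scart2 of γδ cells, had 214, 58.9 and 226 normalized reads in lung libraries 1 to 3, against 402, 388 and 354 in spleen and 340.0, 2402 and 2038 in lymph node (-2.20 ± 0.58 SE, adjusted p = 0.00984; -1.59 and not past the test without lung library 2). It and Ccr6 were the 2 tested members, both lower, while on the T cell scale neither passed. Il17a and Il17f fell under the read minimum here, with 11.2, 5.89 and 22.6 and 11.2, 35.3 and 0 normalized reads in lung. Of 20 IFN-γ and cytotoxic genes 0 were in the table, so they were not analysed here.

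Lipid genes were higher and respiratory chain and ribosomal genes lower. Of 12 lipid uptake and storage genes 9 were higher and 0 lower (median 1.84; 25.7% of all tested genes were higher). Dgat1, which makes triglyceride, had 228, 171 and 169.6 normalized reads in lung libraries 1 to 3, against 24.7, 41.2 and 16.6 in spleen and 13.2, 28.7 and 26.1 in lymph node (2.74 ± 0.36 SE, adjusted p = 0.000509), and it was as high in lung library 1 as in the others. Plin2, a coat protein of lipid droplets, had 159, 383 and 294 in lung, against 12.3 to 69.9 (3.04 ± 0.44 SE, adjusted p = 0.000872). Cd36, a fatty acid transporter, and Lpl, lipoprotein lipase, both also of alveolar macrophages, were higher in the shallow libraries: 79.4, 677 and 266 for Cd36 and 31.6, 818 and 480.5 for Lpl in lung, against 1.47 to 25.7 and 0 to 22.1 in lymphoid libraries (4.47 and 4.72). Slc16a3, the lactate exporter MCT4 and the only glycolysis gene tested, was higher (3.09 ± 0.50 SE, adjusted p = 0.00152). Nuclear genes of oxidative phosphorylation were lower in 8 of 9 (37.9% of all tested genes were; median -1.34, but 0.47 on the T cell scale with 0 lower and 3 higher). Ndufv3, a complex I subunit, had 63.3, 35.3 and 28.3 in lung, against 86.7 to 139 (-1.44 ± 0.32 SE, adjusted p = 0.00516; 0.43 on the T cell scale). Calls of Ndufa4 (-1.04) and Ndufs4 (-1.18) ended without lung library 2, and of Ndufs4 (-0.99) without lung library 3, and 0 of the list passed with voom. Cytosolic ribosomal protein genes were lower in 17 of 18 (median -1.36, but 0.54 on the T cell scale with 1 lower and 4 higher). Rpl38 was the lower one on the T cell scale (-2.01, adjusted p = 0.0216). It had 12.4, 0 and 0 in lung, against 24.5 to 92.6 (-2.77 ± 0.56 SE, adjusted p = 0.00379 on the standard scale), and did not pass with voom. With voom 5 of the 18 ribosomal genes were lower, against 7.65% of all tested genes. In lung library 1 alone the medians of the oxidative phosphorylation and ribosomal lists were -0.48 and -0.76. Reads of ribosomal genes can be shared with pseudogenes.

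Smaller groups moved less evenly. Interferon-stimulated genes were lower in 4 of 5 (37.9% of all tested genes were; median -1.42, 0.47 on the T cell scale). Ifit1, an antiviral RNA-binding protein, had 18.6, 11.8 and 5.65 in lung, against 47.2 to 133 (-2.18 ± 0.40 SE, adjusted p = 0.0027). Ifit1bl1 did not pass without lung library 2 (-1.12), nor Oas3 without any 1 of 7 libraries (-0.56 to -1.48), 0 of the list passed with voom, and Mx1 did not differ past the test (0.21 ± 0.45 SE, adjusted p = 0.679). Of 7 heat shock genes 2 were higher, a share near that of all tested genes (25.7%). Hspa1a, an inducible HSP70, was higher, with 146, 23.5 and 16.96 in lung, against 0 to 5.36 (2.85 ± 0.80 SE, adjusted p = 0.0116). The other higher one, Dnaja1, lost its call without any 1 of the 9 libraries (0.56 to 0.75). Hspa1a had 236 recovered reads in lung library 1, and 4 and 3 in lung libraries 2 and 3, and may share reads with its near-identical copy Hspa1b. Cd160, an inhibitory receptor, was lower (-2.03 ± 0.48 SE, adjusted p = 0.00668; -0.20 and not past the test on the T cell scale), as was Tubb5, a tubulin gene and the only cell cycle gene tested (-1.58 ± 0.35 SE, adjusted p = 0.0051; 0.42 on the T cell scale).

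The 12 largest increases without overlap were Chil3, Thbs1, Cd14, Lyz2, Atf3, Fos, Il1b, Lyz1, Cdkn1a, Trem1, Lpl and Clec7a. Of these 6 are in the myeloid or alveolar macrophage lists (Chil3, Cd14, Lyz2, Lyz1, Lpl, Clec7a), and Trem1 and Il1b, an amplifying receptor and a cytokine, are also known from myeloid cells. Chil3, a chitinase-like protein of alveolar macrophages, had 179, 3302 and 1645 normalized reads in lung libraries 1 to 3, against 2.89, 32.9 and 2.21 in spleen and 45.3, 0 and 0.705 in lymph node (6.37 ± 0.94 SE, adjusted p = 0.000917). Cd14, the LPS coreceptor, had 341, 753 and 514 in lung, against 1.41 to 25.7 (5.42 ± 0.50 SE, adjusted p = 6.14e-05), and Lyz2, a near copy of Lyz1, had 8437, 23815 and 7648 in lung, against 8.46 to 5049 (5.37 ± 1.42 SE, adjusted p = 0.00971). Of the 12, Lpl, given above, and Lyz2 came closest to overlap. Thbs1, thrombospondin 1, had 622, 459 and 220.4 normalized reads in lung libraries 1 to 3, against 8.66, 6.57 and 2.21 in spleen and 6.61, 1.64 and 1.41 in lymph node. It was highest in lung library 1 and at most 8.66 in a lymphoid library (5.47 ± 0.45 SE, adjusted p = 2.94e-05). Cdkn1a, the cell cycle inhibitor p21, had 358, 489 and 294 in lung, against 1.64 to 77.4 (4.96 ± 0.69 SE, adjusted p = 0.000708). All 10 tested alveolar macrophage markers and 18 of 19 myeloid markers were higher, with medians of 3.66 and 3.06 (25.7% of all tested genes were higher). Some, such as Lpl and Chil3 with lymphoid means of 6.49 and 14.0, entered the test only through lung and could hardly be called lower. With voom 3 of the 10 and 16 of the 19 passed. In lung library 1 alone these medians were 1.11 and 3.26.

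The 12 largest decreases without overlap were Tbxa2r, Armc7, Ccr10, Sit1, Fam78a, Fam26f, Abhd8, Alkbh4, Ltb, Snhg20, Tgtp1 and Cecr5. Tbxa2r, the thromboxane receptor, had 44.7, 0 and 0 normalized reads in lung libraries 1 to 3, against 174, 115 and 223 in spleen and 145, 103 and 185 in lymph node (-3.87 ± 0.63 SE, adjusted p = 0.00152). The 2 shallow libraries held no read of it, and lung library 1 lay below every lymphoid library. Sit1, an adaptor that interacts with SHP2 and dampens T cell receptor signals, had 8.68, 0 and 5.65 normalized reads in lung libraries 1 to 3, against 98.2, 47.8 and 90.3 in spleen and 96.3, 114 and 95.2 in lymph node (-3.36 ± 0.41 SE, adjusted p = 0.000376; -2.21 on the T cell scale, adjusted p = 0.00229). Tgtp1, an interferon-inducible GTPase, had 88.7, 29.4 and 11.3 in lung, against 145 to 681 (-2.85 ± 0.49 SE, adjusted p = 0.00201). Alkbh4, a demethylase, and Armc7, an armadillo repeat gene, had differences of -3.11 and -3.47. On the T cell scale 10 of the 12, chosen as the largest decreases, were still lower, as were 1.36% of all tested genes. Tgtp1 (-1.03) and Cecr5 (-1.54) were not past the test there. With voom Tbxa2r, Fam26f, Snhg20 and Cecr5 did not pass. In lung library 1 alone the 12 differences ran from -0.72 for Cecr5 to -3.16 for Ccr10. Their sign was fixed by the choice of genes, since each lung library had to lie below every lymphoid library.

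**Figure D4:**
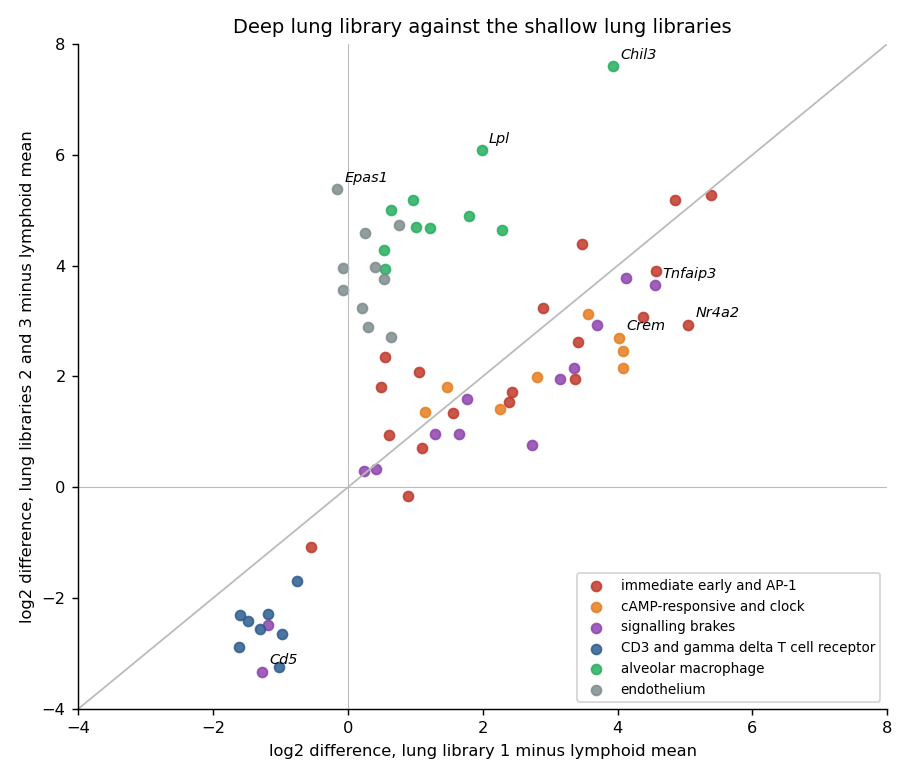
Log2 difference from the shared lymphoid mean of lung library 1 (horizontal axis) and of lung libraries 2 and 3 (vertical axis), for the tested genes of 6 lists, with the line of equality. Alveolar macrophage and endothelial genes lie above the line, as does Epas1 with 5.38 in libraries 2 and 3 and -0.16 in library 1, whereas most cAMP genes and brakes lie on or below it.

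PLZF- cells of adipose tissue, the other non-lymphoid site of the series, are given beside lung without a test, since the lymphoid libraries would be shared. Fosl2 had 1235, 594 and 1012 in lung libraries 1 to 3 and 2191, 934 and 1856 in adipose libraries 1 to 3. Tnfaip3 had 2119, 1154 and 1097 in lung and 3443, 918 and 564 in adipose tissue, and Crem 589.9, 224 and 243 in lung and 1443, 942 and 875 in adipose tissue. Ltb had 233, 94.2 and 147 in lung and 388, 96.9 and 57.7 in adipose tissue. Lung and adipose ranges overlapped for Fosl2, Tnfaip3 and Ltb, while Crem was higher in each adipose library than in each lung library. Chil3, by contrast, was read at 179, 3302 and 1645 in lung and 10.3, 2.25 and 2.62 in adipose tissue.

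The lung difference of PLZF- cells was then set against that of PLZF+ γδ T cells, which carry the reporter signal and were sorted from the same tissues, in 1 fit over 18 libraries with no library shared between the 2 contrasts. That fit did not pair same-numbered libraries of the subsets, although some values ran alike. Endothelial markers took 0.0354%, 1.23% and 0.266% of reads in PLZF- lung libraries 1 to 3, and 0.112%, 0.974% and 0.270% in PLZF+ ones. Over 2139 genes PLZF+ lung cells had 650 genes higher (30.4%) and 479 lower (22.4%) than PLZF+ lymphoid cells. The difference between the contrasts (PLZF- minus PLZF+) passed for 1 gene (0.0468%), while 230 had an unadjusted p under 0.05, and its median was -0.27. That count was 226 on the T cell scale and 210 without PLZF- lung library 1. That gene was Nfkbid, which encodes IκBNS, a nuclear regulator of NF-κB. It had 168, 159 and 113 normalized reads in lung libraries 1 to 3, against 98.6, 69.3 and 77.8 in spleen and 49.1, 50.9 and 62.1 in lymph node in PLZF- cells, and 714, 307 and 547 in PLZF+ lung. Lung minus lymphoid was 1.07 ± 0.28 in PLZF- and 3.48 ± 0.28 in PLZF+ cells, a difference of -2.41 ± 0.39 SE, adjusted p = 0.0156, which ended without PLZF- lung library 3 (-2.24), PLZF+ lung library 1 (-2.14) or PLZF+ lung library 3 (-2.33). Next came Il17a, with 11.2, 5.89 and 22.6 in PLZF- lung and 409, 230.4 and 362 in PLZF+ lung, whose contrasts of 1.36 ± 0.51 in PLZF- and 4.96 ± 0.51 in PLZF+ cells gave a difference that did not pass (-3.61 ± 0.71 SE, adjusted p = 0.0671). Egr2 (-2.80 ± 0.59 SE, adjusted p = 0.0671), Nfkbiz (-1.19 ± 0.26 SE, adjusted p = 0.0671), Acp5 (-1.44 ± 0.31 SE, adjusted p = 0.0671) and Commd5 (-2.50 ± 0.51 SE, adjusted p = 0.0671) did not pass either.

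By gene group the subsets had these values. The median over immediate early genes was 1.95 in PLZF- and 3.85 in PLZF+ cells. Over cAMP and clock genes it was 2.53 in PLZF- and 2.74 in PLZF+ cells, and over brakes 1.42 in PLZF- and 2.49 in PLZF+ cells. CD3 and γδ receptor genes had medians of -2.10 in PLZF- and -1.07 in PLZF+ cells. These differences between medians were not tested. Nr4a1 differed between lung and lymphoid tissue by 3.50 ± 0.46 in PLZF- and 5.69 ± 0.46 in PLZF+ cells (-2.18 ± 0.65 SE, adjusted p = 0.216 for the difference), and Ltb by -3.05 ± 0.30 in PLZF- and -1.22 ± 0.30 in PLZF+ cells (-1.83 ± 0.42 SE, adjusted p = 0.0817). For Tnfaip3 (3.95 ± 0.27 in PLZF- and 4.30 ± 0.27 in PLZF+ cells) the difference was -0.35 ± 0.39 SE, adjusted p = 0.776, and for Rgs1 (2.55 ± 0.33 in PLZF- and 2.30 ± 0.33 in PLZF+ cells) it was 0.26 ± 0.47 SE, adjusted p = 0.883. The summed share of 82 markers of other cells was 5.54%, 14.5% and 7.41% in PLZF- lung libraries and 8.59%, 13.4% and 8.89% in PLZF+ ones.

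**Figure D5:**
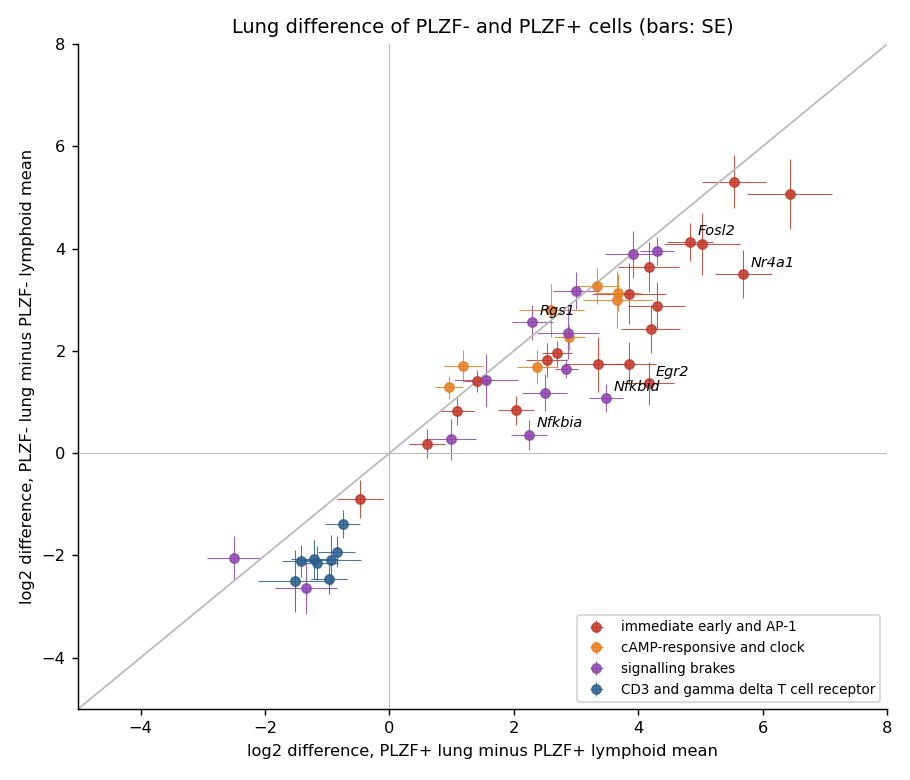
Lung minus lymphoid log2 difference in PLZF- cells (vertical axis) and in PLZF+ cells (horizontal axis) for genes of 4 lists, with standard errors from the fit over 18 libraries and the line of equality. Of 19 immediate early genes 18 lie right of the line, the side on which the median of all 2139 genes also lies (difference -0.27). Nfkbid (1.07 in PLZF- and 3.48 in PLZF+ cells), a gene of the brakes list, passed the test of the difference, and Nr4a1 and Egr2 did not.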

How the data were processed

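RNA of sorted γδ T cells was sequenced by the authors from Smart-seq2 libraries. HISAT 0.1.6, SAMtools 1.2, Cufflinks 1.2 and the build mm10 are named per the submitters' processing notes, without their roles. The deposited values are log2 of TMM-normalized reads, per the file headers, for genes kept by the authors at a q-value under 0.05 in their own tissue test. The deposited p-values of that test were not used further. A sheet that repeats 25 genes was not used. A whole read count was recovered for each value from the deposited log2 steps (7926 of 7926 genes within 0.0001 log2), and 11 merged entries were left out.

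Normalized reads are recovered reads divided by a library's relative depth. The test was limma 3.58.1 with trend in R 4.3.3 on log2(normalized reads + 5), over genes with a mean of at least 20 normalized reads, with Benjamini-Hochberg adjustment over all of them and calls at adjusted p under 0.05. No count model was used because the deposited unit is log2. Marker shares were compared with exact permutation tests (scipy 1.17.1), and Python 3.11.15 with numpy 2.4.6, pandas 2.3.3 and matplotlib 3.10.9 did the rest. In simulated data for the PLZF- comparison (2115 genes) the test called 21.9% of genes changed by 1 on the log2 scale, 93.5% of those changed by 2, 100% of those changed by 3, and 0.518% of unchanged ones. The simulation changed 200 genes, gave every gene and library the same dispersion and added no transcripts of other cells. Its rates hold for that setting and need not hold for the real lung libraries. Libraries held 57107 to 845066 recovered reads over the 24 libraries. Intervals cover counting error only, since the reads carry no molecular identifiers.

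Members and gene lists were chosen with earlier results of these data known. Named were the 12 largest increases and decreases without overlap, 4 genes per list, those of smallest adjusted p, the 6 smallest adjusted p of the difference between subsets, the 3 most abundant genes of each marker list and the CD3 genes. Other list members were named after their values were seen. One named gene is counted but not reported here. Alternatives were other pseudocounts, read minimums, scalings, weights, depths and sets of libraries. Scaling to T cell markers, and leaving out spleen library 2 with lymph node library 1, were chosen after seeing the data.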

Additional observations from a re-analysis of the deposited data

Results flagged for a closer look

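Nfkbid, the gene of IκBNS, was the only gene of 2139 whose difference between lung and lymphoid tissue was itself different between PLZF- and PLZF+ cells in limma's test of the interaction. The difference between the contrasts (PLZF- minus PLZF+) was -2.41 ± 0.39 SE, adjusted p = 0.0156, and it was in the same direction whichever library was left out. On the T cell scale it was -1.25 and passed. It did not pass without PLZF- lung library 3 (-2.24), PLZF+ lung library 1 (-2.14) or PLZF+ lung library 3 (-2.33).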

How the results depend on the processing

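The PLZF- lung comparison (1355 calls, 548 higher and 807 lower) gave 852 calls, 289 of them higher, at a minimum of 50 normalized reads, where fewer genes were tested, 616 with voom (163 lower), and 75 without lung libraries 2 and 3 (59 higher, 16 lower), with 1 lung library left. Scaling to T cell markers gave 1422 higher and 29 lower calls, and median-of-ratios scaling 641 higher and 747 lower. Leaving out each library in turn gave 879 to 1445 calls, 375 to 562 higher and 485 to 918 lower. Calls among list members numbered 73 with voom and 27 without lung libraries 2 and 3. Across the 3 PLZF- tissues the replicate numbers showed no common pairing (correlations of same-numbered libraries -0.316 to 0.416). With the number as a block 1318 genes were called, 542 higher and 776 lower. Pairing between PLZF- and PLZF+ libraries was not checked in this way.

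For the difference between subsets the single call became 2 calls with a pseudocount of 1, with a pseudocount of 10 and at a minimum of 10 reads, 4 without a minimum, 5 with voom, 3 with the replicate block, 226 on the T cell scale, and 0 to 210 with each library left out in turn. The cause was not tested.

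Of 104 named genes 94 were called, and 18 of these lost the call when some 1 library was left out, each of the 18 without lung library 2. Between 90 (of 93 tested, at a minimum of 50) and 104 kept their direction and side of the threshold under the other pseudocounts, minimums, scalings, block, depth and library weights run, 70 did with voom and 64 on the T cell scale. On the T cell scale the sign changed for Ccr9 (0.47), Ccr6 (0.785), Cd3e (0.054), Cd247 (0.59), Trbc1 (0.26), Trbc2 (0.012), Ifit1bl1 (0.32), Oas3 (0.50), Hsp90ab1 (1.57), Ndufv3 (0.43), Ndufa7 (0.14), Ndufa4 (0.43), Ndufs4 (0.47), Tubb5 (0.42) and Acp5 (0.64). Without lung libraries 2 and 3 it changed for Epas1 (-0.16), Inmt (-0.0255) and Mgp (-0.11). The share of B cell marker reads in PLZF- lung minus lymphoid libraries ran from -0.389 to 0.320 percentage points with 1 library left out, positive without spleen library 2, and that of red cell markers from -0.0538 to 0.0679, positive without lung library 1 (0.0245) or spleen library 2. Depth limits the lower calls, since 3 reads equal 17.7 and 17.0 normalized reads in lung libraries 2 and 3.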

Other observations

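Structural lung transcripts were carried by lung libraries 2 and 3. Of 10 endothelial genes tested 7 were higher and 0 lower than in lymphoid tissue (median 2.65, and 0.28 in lung library 1 alone), and of 6 fibroblast genes 5 were higher and 0 lower (2.57, and -0.07 in lung library 1 alone). Of all tested genes 25.7% were higher and 37.9% lower. Genes such as Cldn5 and Inmt, with lymphoid means of 3.02 and 1.49, entered the test only through lung and could hardly be called lower. Epas1, the HIF-2α gene of lung endothelium, had 9.93, 1354 and 350.5 normalized reads in lung libraries 1 to 3, against 11.96, 17.3 and 16.2 in spleen and 4.72, 8.21 and 15.5 in lymph node. Library 1 lay within the lymphoid range (3.54 ± 1.01 SE, adjusted p = 0.0125), and the call ended without lung library 2 (2.13) or 3 (3.10). Inmt, a methyltransferase of lung stroma, had 1.24, 353 and 107 in lung, against 0 to 3.299 in lymphoid libraries (3.31 ± 1.05 SE, adjusted p = 0.0185), and its call ended likewise (2.06 and 2.90). Sftpc, the surfactant protein C gene of alveolar epithelium, had 1.24, 589 and 62.2 in lung, against 0 to 0 (3.65 ± 1.15 SE, adjusted p = 0.0181; 2.03 and 3.61 without lung library 2 and without lung library 3, neither past the test). With voom 0 endothelial and 0 fibroblast genes passed.

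B cell genes did not move as a group, with 0 of 12 higher and 1 lower (25.7% and 37.9% of all tested genes). That one was Cd79b, a chain of the B cell receptor complex, which had 14.9, 23.5 and 84.8 in lung, against 65.6 to 409 (-1.72 ± 0.54 SE, adjusted p = 0.0184). Both tested haemoglobin genes did not pass, and Il1rl1 and Il5 had too few reads for the test per gene. Among myeloid genes the neutrophil granule gene S100a8 went with the shallow libraries (2.81 in all, -0.11 in lung library 1 alone), whereas Cybb, an NADPH oxidase subunit, did not (4.43 and 5.02). Cd38, an ectoenzyme, was the only activation gene tested and did not pass (0.60 ± 0.46 SE, adjusted p = 0.25), nor did Ramp3, a receptor activity modifying protein (0.51 ± 0.58 SE, adjusted p = 0.437), or Tgfb1, a cytokine (0.89 ± 0.37 SE, adjusted p = 0.0516).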
